A study of Mus musculus with 6 samples.

Results

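The nuclear-encoded genes of the 5 oxidative phosphorylation complexes were followed in mouse colonic crypts, the glands of the colonic epithelium, under control conditions, on day 2 of chemical injury and in adenomas. Members were chosen by gene symbol among the array probe sets annotated to 1 gene: symbols beginning Nduf for complex I, Sdha to Sdhd for complex II, symbols beginning Uqcr and Cyc1 for complex III, symbols beginning Cox4 to Cox8 for complex IV, and symbols beginning Atp5 for complex V. The rule found 157 probe sets for 85 genes, out of 20380 one-symbol probe sets for 12393 genes. Complex I had 39 genes, complex II 4, complex III 9, complex IV 16 and complex V 17. Among the complex I symbols, 5 begin with Ndufaf and encode assembly factors rather than subunits, so they are also counted apart. After a filter on low intensities, 80 members were tested among 7456 genes. The 5 members not tested were all of complex IV.

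Complexes I to IV of the inner mitochondrial membrane pass electrons from NADH and succinate to oxygen, and complexes I, III and IV pump protons as they do so. Complex V, the ATP synthase, lets the protons flow back and makes ATP. Mature colonocytes are known to oxidise butyrate made by gut bacteria, and this chain is where the electrons from that oxidation go. Complexes I, III, IV and V also contain subunits encoded by mitochondrial DNA, and none of the 13 such genes had a one-symbol probe set here, so all values below concern nuclear transcripts.

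RNA was measured on 6 Affymetrix arrays, 2 per group, each with RNA pooled from 2 male mice that carry lacZ at 1 copy of Lgr5, the gene of a crypt stem cell receptor. Control mice drank water, and DSS mice drank 1% dextran sulfate sodium, which injures the colonic epithelium, for 2 days. Tumor crypts came from 12 adenomas per array, 90 days after the carcinogen azoxymethane (12.5 mg per kg); DSS was given 5 days later at 2%, then at 1.5% and 1.0%, for 5 days in each cycle with 14 days of water after it. All labels give 6 to 8 weeks as the age, which for tumor mice is the age at injection, 90 days before collection. Time since injection, any difference in age at collection, azoxymethane, the repeated DSS and tumor status therefore cannot be told apart.

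Values are MAS5 signal intensities on a linear scale. Changes are differences of log2(intensity + 17.7), and a gene is called at an adjusted p under 0.05 by limma with Benjamini-Hochberg adjustment over all 7456 genes. With 2 arrays per group, precision is low, and p-values measure the spread between pools. Array medians lay between 94.2 and 131 and were highest for tumor, while the 99th percentile was lowest there (10687 and 9345, against 11067 to 12741 elsewhere). For actin, 3' probe sets exceeded 5' ones, a sign of RNA quality, by 0.95 and 1.04 (log2) in tumor crypts, and by 1.20 to 1.63 in the other groups. Its part in the results was not tested. The epithelial label was checked with Epcam, a surface protein of epithelial cells, which had intensities of 12936 and 12682 in control, 14732 and 12534 in DSS and 12781 and 11358 in tumor crypts.

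Oxidative phosphorylation genes were lower in tumor crypts than in control crypts, in all 5 complexes and by a similar amount. Of the 80 members tested, 78 had a log2 change below 0, against 46.4% of all genes tested. The median change was -0.48, or 0.715-fold, while that of all genes was 0.05. The changes also lay close together: the members' quartiles were -0.58 and -0.37, those of all genes -0.30 and 0.41. In 71 members both tumor arrays were below both control arrays, a share of 88.8%, where 27.7% of all genes met the same condition, and no member had both tumor arrays above (33.8% of all genes). The test called 19 members lower (23.8%) and 0 higher, against 9.74% of all genes called lower and 12.8% called higher. In bulk RNA, fewer cells of a type and less RNA per cell cannot be told apart.

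The 2 tumor arrays differed in how far they fell. Measured from each member's control mean, the median member stood at -0.08 and 0.08 on the control arrays, at 0.09 and -0.05 on the DSS arrays, and at -0.32 and -0.64 on tumor arrays 1 and 2. Tumor replicate 2 was the lower of the pair in 78 of the 80 members, while it was lower in 47.7% of all genes. Both tumor arrays were therefore below all 4 others at the median, and in each of the 5 complexes too, with replicate 2 the lower. The complexes ranked differently on the tumor arrays: complex I had the median nearest to control on replicate 1 (-0.30) and the farthest on replicate 2 (-0.70). The number of calls depends on single arrays: it was 1 without tumor replicate 2, 36 without tumor replicate 1, 7 and 2 without control replicates 1 and 2, and 9 and 11 without DSS replicates 1 and 2. The median of the members stayed between -0.64 and -0.32 over these 6 fits. Among members not called, 27 had an adjusted p from 0.05 to 0.10, so the threshold runs through a dense band of members: Atp5c1, Sdhd, Ndufb5 and Ndufv2 lay just inside it at 0.0449 to 0.0462, and Ndufa1, Cyc1 and Ndufs4 just outside at up to 0.0512 (limma adjusted p).

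**Figure D1:**
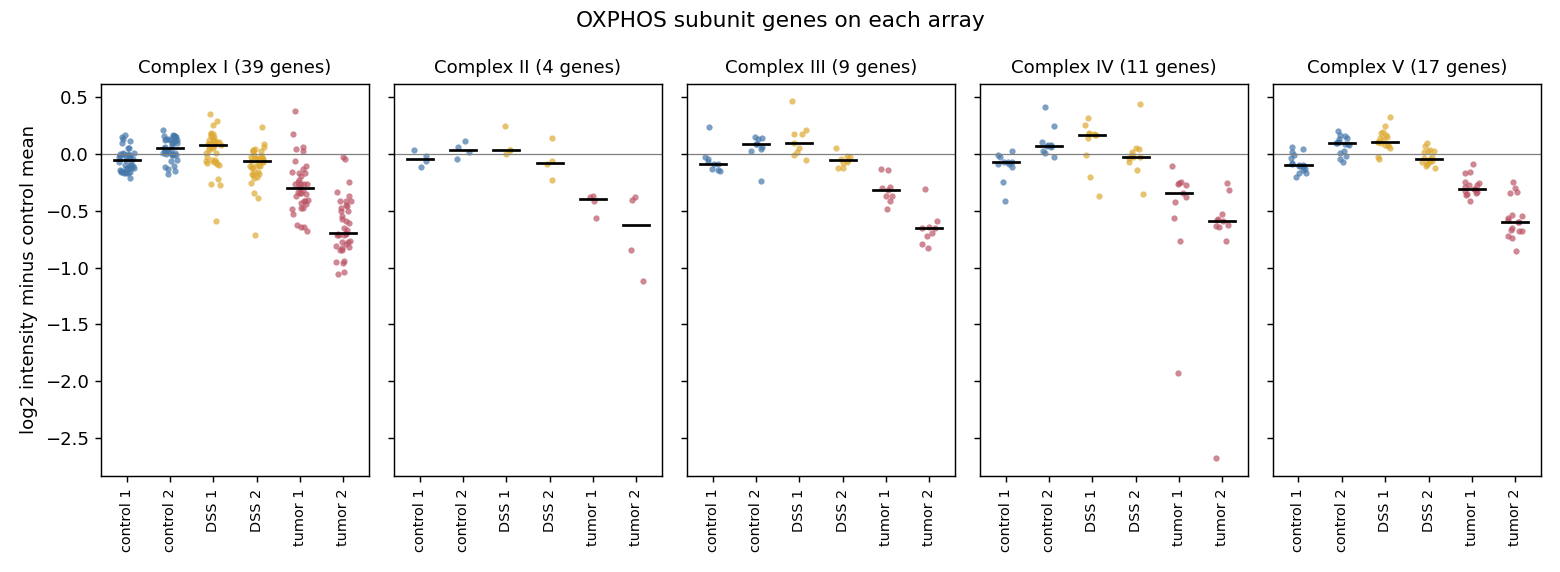
Each point is 1 tested member on 1 array, as log2 intensity (pseudocount 17.7) minus the member's mean over the 2 control arrays; panels are complexes I to V and black bars are medians. The tumor arrays lie below the others in every panel, tumor replicate 2 lower than replicate 1, and the lowest 2 points of complex IV are Cox7a1.

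Complex I oxidises NADH and hands the electrons to ubiquinone. Of its 39 members, 37 were below 0 with a median of -0.49, and 11 were called lower (28.2%, against 9.74% of all genes). Core subunits, which hold the flavin and iron-sulfur clusters of the peripheral arm, had 3 calls among the 6 measured (median -0.47), and supernumerary subunits, which surround the core, had 8 among 27 (median -0.52). This grouping by role was made with the values known. Ndufa6, a peripheral-arm subunit that binds the acyl carrier protein, had the lowest change in complex I. Its intensities were 9445 and 11719 in control, 10818 and 10749 in DSS, and 6555 and 5123 in tumor crypts. Tumor arrays were below all others, and the log2 change from control was -0.86 ± 0.18 (SE; limma adjusted p = 0.0108). Ndufb10, a membrane-arm subunit, read 4446 and 4407 in control, 4708 and 4113 in DSS, and 2865 and 2123 in tumor crypts, a change of -0.84 ± 0.18 (limma adjusted p = 0.0139). Ndufa5, a peripheral-arm subunit, read 3868 and 4775, 4046 and 4226, then 2746 and 2210.5 in the same order of groups (-0.80 ± 0.18, limma adjusted p = 0.0153). For both, the highest tumor value was well under the lowest value of the other groups. Ndufv3, a small subunit of the module that oxidises NADH, was at 4501 and 3833 in control, 4433 and 3997 in DSS and 2652 and 2161 in tumor crypts (-0.79 ± 0.17, limma adjusted p = 0.0139).

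Among the core subunits that carry electrons, Ndufs1, the largest iron-sulfur subunit, had intensities of 2861 and 3280.2 in control, 3210.2 and 3118 in DSS, and 2180.1 and 1739 in tumor crypts (-0.65 ± 0.17, limma adjusted p = 0.029). Ndufs7, which holds the cluster next to ubiquinone, had 4604 and 4004, 4884 and 4478, and 3179 and 2612 (-0.57 ± 0.17, limma adjusted p = 0.0409). Both fell in tumor crypts with no overlap between groups. By contrast, Ndufv1, the subunit that binds NADH and the flavin, had 4698 and 3897 in control against 3973 and 3615 in tumor crypts, and these overlap (-0.17 ± 0.17, limma adjusted p = 0.486). The other called members were Ndufb9, Ndufb5, Ndufa3, Ndufa9 and Ndufv2, with changes from -0.70 to -0.60.

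A pair of complex I symbols had changes above 0, neither of them called. Ndufa4, named for complex I but since assigned to complex IV as a subunit, had 5327 and 6679 in control, 6291 and 5669.7 in DSS, and 7764 and 5845 in tumor crypts (0.17 ± 0.19, limma adjusted p = 0.546). Ndufa2, a peripheral-arm subunit, had 4567 and 4651 in control against 5206 and 4479 in tumor crypts (0.07 ± 0.15, limma adjusted p = 0.781). Tumor replicate 1 was the highest of all arrays for Ndufa4, and the tumor arrays lay on both sides of control for Ndufa2. With each array centred on its median, these changes were -0.07 and -0.18, so their sign depends on the scaling. The 5 Ndufaf assembly factors had a median of -0.32 and no calls. The lowest of them on the probe sets tested, Ndufaf3, had 834 and 871 in control against 654 and 531 in tumor crypts (-0.52 ± 0.17, limma adjusted p = 0.0639). A further Ndufaf4 probe set of lower intensity had 957 and 1034 in control against 824 and 502 in tumor crypts. Its difference was -0.61, against -0.15 for the Ndufaf4 probe set tested, so which factor is lowest depends on the probe set.

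Complex II, succinate dehydrogenase, is also an enzyme of the TCA cycle and is wholly encoded in the nucleus. All 4 genes were below 0 in tumor crypts without overlap, with a median of -0.50, and Sdhb and Sdhd were called (50%, against 9.74% of all genes). Sdhb, the iron-sulfur subunit, had intensities of 7817 and 9129 in control, 8643 and 7192 in DSS, and 5710.4 and 3886 in tumor crypts (-0.84 ± 0.21, limma adjusted p = 0.024). Sdhd, a membrane anchor, had 4774 and 5194, 4991 and 4769, and 3829.8 and 2767 (-0.61 ± 0.18, limma adjusted p = 0.0457). For these 2 genes, tumor replicate 2 was clearly under replicate 1. Sdha, the flavin subunit that oxidises succinate, had 3819 and 3610.0 in control, 4408 and 4109.8 in DSS, and 2793 and 2851 in tumor crypts (-0.39 ± 0.14, limma adjusted p = 0.0848). Sdhc, the other anchor, had 1893 and 1940.4, 1963 and 1799, and 1479 and 1445 (-0.39 ± 0.15, limma adjusted p = 0.102). In these last genes the tumor arrays were close to each other, and the change was -0.39 in both genes.

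Complex III moves electrons from ubiquinol to cytochrome c. Its 9 members were all below 0, with a median of -0.50, and 2 were called (22.2%, against 9.74% of all genes). Uqcrfs1, the Rieske iron-sulfur protein, had 6091 and 6864 in control, 6554 and 6150.3 in DSS, and 4607 and 3632 in tumor crypts (-0.66 ± 0.17, limma adjusted p = 0.0254). Uqcrc2, a core protein, had 10749 and 11786, 12748 and 10888, and 8436 and 6501 (-0.60 ± 0.17, limma adjusted p = 0.0385). Control and DSS values overlapped for both, and tumor values lay apart. Cyc1, cytochrome c1, had 7019 and 7312 in control, 7676 and 7079 in DSS and 5539 and 4767 in tumor crypts, with a change of -0.48 ± 0.15 just outside the threshold (limma adjusted p = 0.0505). Only Uqcrc1, the other core protein, overlapped between tumor and control among the 9: it had 5034 and 3605 in control against 3865 and 3448 in tumor crypts (-0.22 ± 0.24, limma adjusted p = 0.538). Its 2 control arrays were further apart than the groups.

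Complex IV, cytochrome c oxidase, reduces oxygen. All 11 tested members were below 0 without overlap, the median was -0.43, and Cox7a1, Cox8a and Cox7a2l were called (27.3%, against 9.74% of all genes). Cox7a1 stood apart from every other member. This subunit isoform is best known from heart and skeletal muscle. Its intensities were 2633 and 3718 in control, 2418 and 2446 in DSS, and 812 and 475 in tumor crypts. The mean intensity was 4.93-fold higher in control than in tumor crypts, and the log2 change on the scale tested was -2.30 ± 0.27 (limma adjusted p = 0.000863), and the next lowest member, Ndufa6, was at -0.86. Cox7a1 ranked at 51 of 7456 from the lowest change, and it was called in all 17 alternative fits, with changes from -2.68 to -1.92. It is measured by 1 probe set. Markers of striated muscle were near the floor: of 8, only 2 passed the filter, and the sum of all 8 ran from 425 to 612 on control and DSS arrays and was 269 and 183 on tumor arrays. One of them, the mitochondrial creatine kinase Ckmt2, had 198 and 350 in control, 219 and 206 in DSS, and 41.3 and 21.4 in tumor crypts. It passed the filter through control and DSS alone, and its tumor values are below the arrays' medians. No size or test of its change is therefore given. Smooth muscle markers summed to 606 and 3230 in control, 1106 and 3083 in DSS, and 356 and 1059 in tumor crypts. Within control, the array with the higher smooth and striated muscle sums (replicate 2) also had the higher Cox7a1. Within DSS, sums were higher on replicate 2 and Cox7a1 was 2418 and 2446. Within tumor, replicate 2 had the higher smooth muscle sum, while the striated muscle sum (269 and 183) and Cox7a1 were both lower on it. The part of muscle cells in the Cox7a1 result was not tested.

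The sister genes of Cox7a1 had changes in the range of the other members of the complex. Cox7a2, the isoform found in most tissues, had 17178 and 19274 in control, 20496 and 17745 in DSS, and 15279 and 12242 in tumor crypts (-0.41 ± 0.16, limma adjusted p = 0.104). Cox7a2l, which links complexes III and IV in supercomplexes, had 5293 and 5358, 6021 and 5083, and 3983 and 3121 (-0.59 ± 0.17, limma adjusted p = 0.0417). Tumor values of both were below all others, by far less than those of Cox7a1. Cox8a, the widely expressed form of the smallest subunit, had 6569 and 7263 in control, 6876 and 7172 in DSS, and 4672 and 4457 in tumor crypts (-0.60 ± 0.14, limma adjusted p = 0.0195). Among the other general isoforms, Cox4i1 had a change of -0.42 ± 0.17 (limma adjusted p = 0.103), Cox6b1 one of -0.42 ± 0.16 (limma adjusted p = 0.0949) and Cox6a1 one of -0.18 ± 0.15 (limma adjusted p = 0.444), none of them called. Cox6a1 read 13303 and 14665 in control against 12985 and 11723 in tumor crypts, and with quantile normalization its change was 0.02. A further Cox6a1 probe set of lower intensity had 9721 and 10079 in control against 6984 and 5549 in tumor crypts, a difference of -0.67, so the size of the Cox6a1 change depends on the probe set. The alternative isoforms Cox4i2, Cox6a2, Cox6b2, Cox8b and Cox8c stayed between 3.04 and 114 on every array and were not tested.

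**Figure D2:**
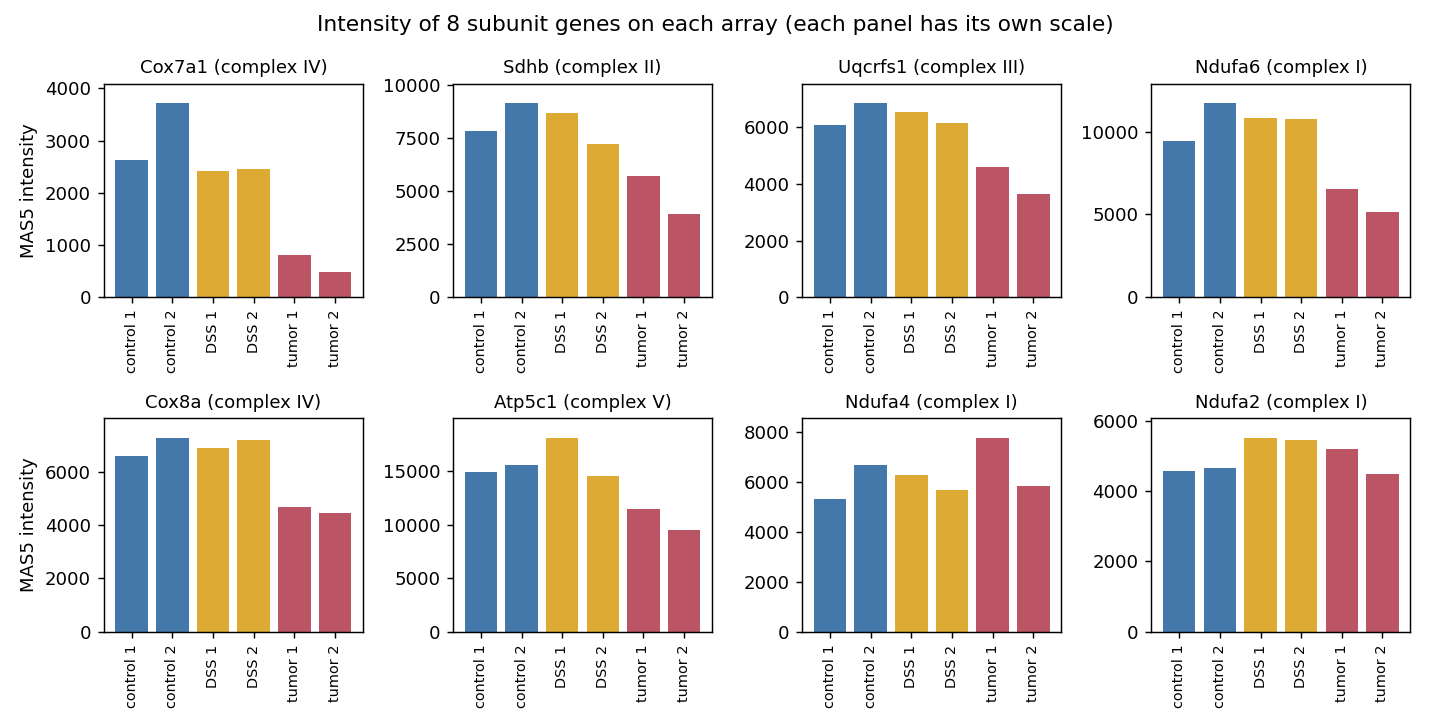
Bars give the MAS5 intensity of 8 members on each of the 6 arrays (blue control, yellow DSS, red tumor), each panel with its own axis from 0. Cox7a1 drops from 2633 and 3718 in control to 812 and 475 in tumor crypts, 5 other genes show a smaller drop on both tumor arrays, and Ndufa4 and Ndufa2 show none.

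Complex V makes ATP with a rotating head, F1, on a membrane ring. Its 17 members were all below 0 and none overlapped between tumor and control, with a median of -0.45, yet 1 alone was called. That share, 5.88%, is below the 9.74% of all genes called lower. Atp5c1, the central stalk that turns within the head, had 14939 and 15581 in control, 18108 and 14584 in DSS, and 11461 and 9525 in tumor crypts (-0.55 ± 0.16, limma adjusted p = 0.0449). The catalytic subunit Atp5b had 9086 and 10319 in control, 10705 and 9439 in DSS and 8611 and 7884 in tumor crypts, a small change that did not pass (-0.23 ± 0.15, limma adjusted p = 0.293). Its partner in the head, Atp5a1, had 8396 and 7652, 9103 and 8185, and 6701 and 6335 (-0.30 ± 0.14, limma adjusted p = 0.172). Over the head and central stalk the median of 5 genes was -0.33, while it was -0.44 for 4 genes of the peripheral stalk and -0.52 for 5 membrane subunits. The difference between these subgroups was not tested.

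The membrane ring of complex V is built from subunit c, which 3 genes encode as the same mature protein. Atp5g1 had 4697 and 4424 in control against 3606 and 2891 in tumor crypts (-0.50 ± 0.17, limma adjusted p = 0.0743). Atp5g2 had 5451 and 7250.1 in control against 5089 and 4159.8 in tumor crypts (-0.45 ± 0.18, limma adjusted p = 0.117). Atp5g3 had 12443 and 12586 in control against 11817 and 10545 in tumor crypts (-0.16 ± 0.15, limma adjusted p = 0.461). All 3 were lower on both tumor arrays than on both control arrays, none was called, and with quantile normalization the change of Atp5g3 was 0.00.

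**Figure D3:**
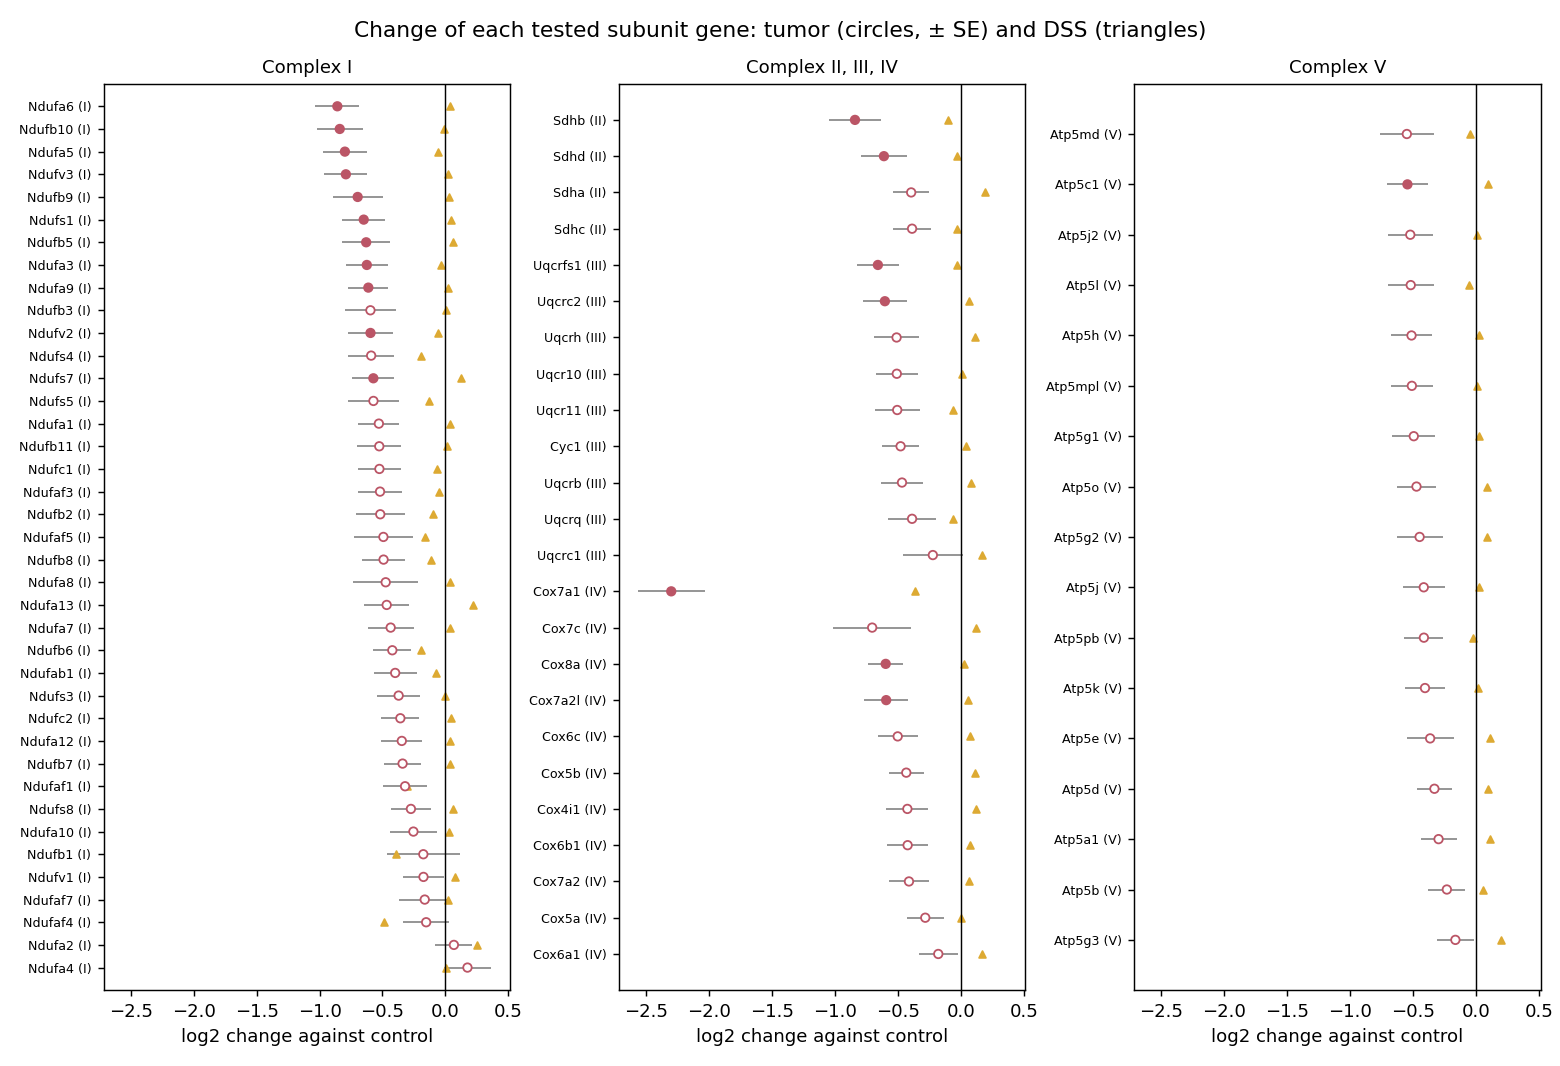
Log2 change against control of each tested member, ordered by size within complex: circles with bars are tumor minus control ± SE (filled where called, limma adjusted p under 0.05), triangles are DSS minus control. Of the circles, 78 of 80 lie left of 0, and the triangles scatter around 0.

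Several probe sets of a gene gave the same direction. Of the 157 member probe sets, 142 passed the filter, and 140 of those had a tumor minus control difference below 0. All 42 genes with at least 2 passing probe sets had 1 sign on all of them in this comparison. The size could differ: the differences ran from -1.13 to -0.15 for Ndufab1, the acyl carrier protein, from -1.09 to -0.55 for Atp5c1 and from -0.67 to -0.18 for Cox6a1. A further 8 probe sets carry an oxidative phosphorylation symbol together with another symbol and were left out, since their signal cannot be given to 1 gene.

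Members are among the most abundant transcripts of the array, and intensity itself moved with the comparison. When the tested genes were split into 10 bins of equal size by mean intensity, 67 of the 80 members were in the highest bin. Genes of that bin other than members had a median change of -0.12 from control to tumor, and 64.4% of them were below 0. The members in it had a median of -0.48. After quantile normalization the same medians were 0.01 and -0.33. Centring each array on its median moved the median of all genes by -0.25, to -0.20, and that of the members to -0.73. It shifts all genes of an array by the same amount, so the distance between members and all genes, -0.53, could not change. With quantile normalization this distance was -0.32. After centring, all calls split into 649 higher and 1227 lower, against 954 and 726 as deposited. Other gene groups, picked with the values known, moved less. A set of 46 genes of cytosolic ribosomal proteins had a median of -0.13 with 1 called lower, and 74 of mitochondrial ribosomal proteins a median of -0.11 with 4 called lower. These groups were not matched to the members by intensity.

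**Figure D4:**
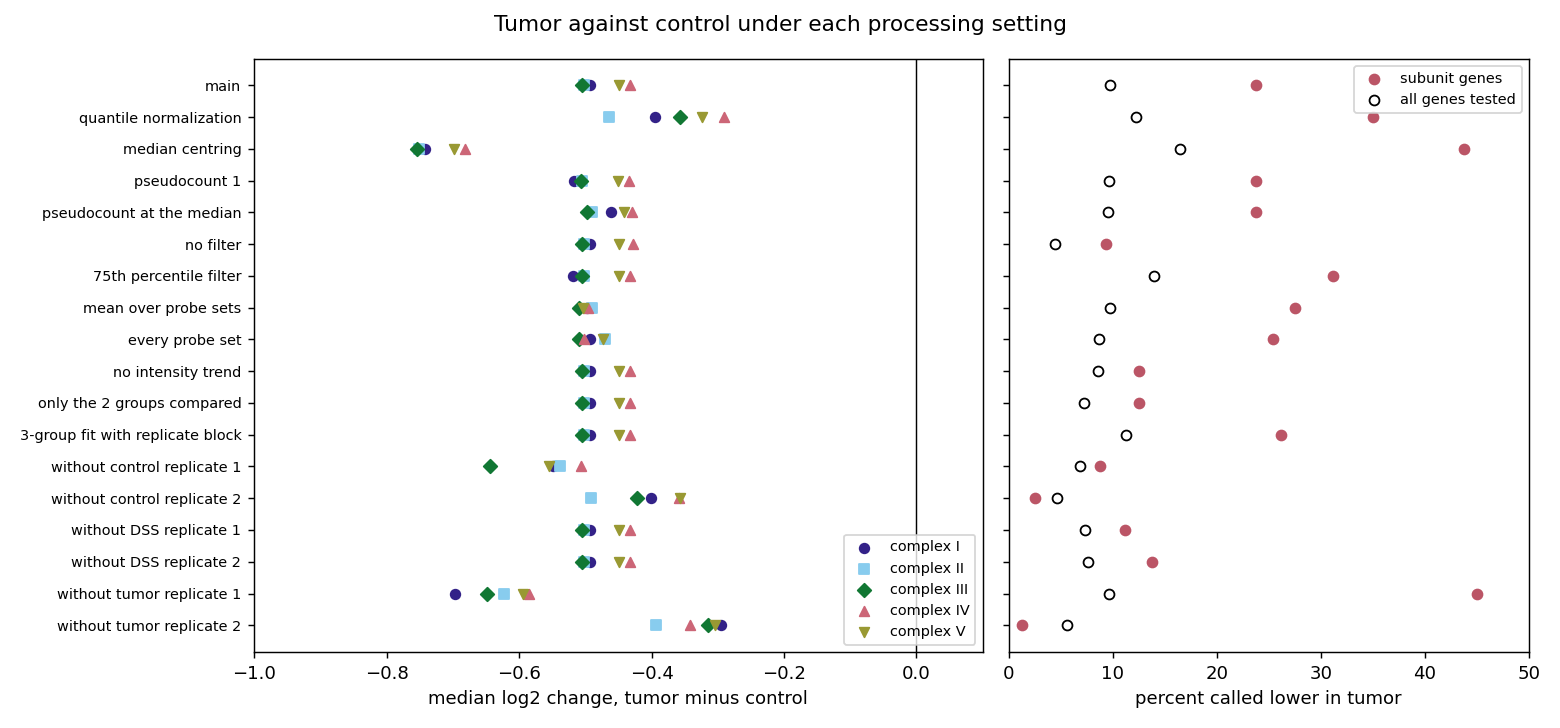
Left, the median log2 change of each complex in tumor minus control under the reported processing (main) and 17 alternatives; right, the percent of members (filled) and of all genes tested (open) called lower. All medians lie below 0, from -0.75 to -0.29, while the percent of members called runs from 1.25 to 45.

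Tumor crypts were also compared with DSS crypts. These share the tumor arrays with the comparison above, so the results are not independent of it. Of the 80 members, 77 were below 0 (46.5% of all genes) with a median of -0.50. Both tumor arrays were below both DSS arrays in 73 members (91.2%, against 30.7% of all genes). The test called 29 lower (36.2%) and 0 higher, against 11.3% of all genes called lower and 14.8% higher. Complex I had 12 calls, complex II 3, complex III 5, complex IV 6 and complex V 3. Sdha, not called against control, was at -0.59 against DSS (limma adjusted p = 0.0191), and Cox7a1 was at -1.94 (limma adjusted p = 0.0017). A single member, the assembly factor Ndufaf4, had both tumor arrays above both DSS arrays (35.3% of all genes), and its change of 0.33 was not called (limma adjusted p = 0.217). Its other passing probe set had 703 and 725 in DSS against 824 and 502 in tumor crypts, which overlap, and a difference of -0.14, so the direction of Ndufaf4 turns with the probe set. In this comparison 2 calls were left without tumor replicate 2, 2 without DSS replicate 1 and 7 without DSS replicate 2, and the median stayed between -0.66 and -0.34 when any array was left out.

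On day 2 of DSS the members, on the probe sets tested, were near their control levels. No member was called in DSS against control, nor was any of the 7456 genes (0%) by limma, and 1 member had an unadjusted p under 0.05, against 2.53% of all genes. Changes were above 0 in 53 members and below 0 in 27 (48.9% of all genes were below 0), with a median of 0.02, and the medians of the complexes ran from -0.03 in complex II to 0.07 in complex IV. Control and DSS arrays did not overlap in 4 members that were higher and in 9 that were lower (11.2%), against 12.8% and 13.7% of all genes, so both shares were near or below the background. Of the 9 lower members, 8 belonged to complex I and 4 of these were Ndufaf assembly factors. Ndufaf4 had the smallest p: 1201 and 1189 in control, 788 and 911 in DSS, and 1216 and 947 in tumor crypts, a DSS change of -0.49 ± 0.18 (limma unadjusted p = 0.028, adjusted p = 1.00). Ndufaf1, also an assembly factor, had 614 and 611 in control and 507 and 479 in DSS crypts (-0.30 ± 0.18, limma unadjusted p = 0.123). Both genes had DSS values under both control values, and neither passed the test. A further Sdhc probe set of lower intensity passed the filter and had 600 and 659 in control against 391 and 358 in DSS crypts. Its difference was -0.72, against -0.03 for the Sdhc probe set tested, so the DSS change of Sdhc depends on the probe set.

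Next by p were genes with values above control. Ndufa2 had 5513 and 5444 in DSS crypts against 4567 and 4651 in control, a change of 0.25 ± 0.15 (limma unadjusted p = 0.128). Sdha had a change of 0.20 ± 0.14 (limma unadjusted p = 0.209), and its values are given with complex II. DSS and control values did not overlap for either gene. The sign of most members depended on which arrays were set side by side: 69 of 80 were below 0 between the second and the first DSS array, and the median member was 0.16 between control and DSS replicate 1 and -0.12 between control and DSS replicate 2.

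Promoter sequence was examined because members moved together. RefSeq windows (GRCm38.p6) from 250 bases before to 50 bases after the annotated start were found for 70 of the 85 genes. Sequences for 4 factors known to act on respiratory chain genes were searched on both strands: NRF1 (GCGCA, any base, then GCGC), ETS family with GABPA (CCGGAAG), oestrogen-related receptors (TCAAGGTCA) and YY1 (AAGATGGCG). NRF1 letters were in 15 windows (21.4%), against 11.9% of the 6127 windows of tested genes and 4.78% of all 27025. ETS letters were in 17 (24.3%, against 20.3% and 9.12%), receptor letters in 2 (2.86%, against 0.261% and 0.407%) and YY1 letters in 5 (7.14%, against 3.64% and 1.49%). Windows with any of the 4 made up 43.8% of 16 called members and 48.1% of 54 other members. The following stretches, 250 bases up to the base before the start and written 5' to 3' on the gene's strand, show the member with the lowest change (Cox7a1), a called and an uncalled subunit of the same complex (Sdhd and Sdha), a called complex I member (Ndufa5) and members of complexes IV and V that were not called (Cox6a1 and Atp5k). Capitals mark the letters found. NRF1 letters are in every stretch except that of Cox7a1, but in only 15 of the 70 member windows, so these stretches are not typical of members.
Cox7a1 (chr7:30183921-30184170, plus strand): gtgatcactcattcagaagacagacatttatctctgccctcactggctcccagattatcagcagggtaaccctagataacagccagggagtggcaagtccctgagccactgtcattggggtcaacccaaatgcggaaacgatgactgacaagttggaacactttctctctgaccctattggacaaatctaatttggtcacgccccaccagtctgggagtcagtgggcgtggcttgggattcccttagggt
Sdhd (chr9:50603850-50604099, minus strand): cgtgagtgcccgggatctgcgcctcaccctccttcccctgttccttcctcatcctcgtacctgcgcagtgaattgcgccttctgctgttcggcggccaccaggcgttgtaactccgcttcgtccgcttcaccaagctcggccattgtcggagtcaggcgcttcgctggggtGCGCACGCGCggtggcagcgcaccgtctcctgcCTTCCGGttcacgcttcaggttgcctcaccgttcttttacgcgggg
Sdha (chr13:74350241-74350490, minus strand): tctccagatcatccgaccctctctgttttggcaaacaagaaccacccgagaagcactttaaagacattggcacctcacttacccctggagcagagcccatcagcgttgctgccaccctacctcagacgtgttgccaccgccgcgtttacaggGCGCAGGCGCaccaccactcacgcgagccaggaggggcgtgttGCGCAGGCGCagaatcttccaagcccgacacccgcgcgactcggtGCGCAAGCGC
Ndufa5 (chr6:24527527-24527776, minus strand): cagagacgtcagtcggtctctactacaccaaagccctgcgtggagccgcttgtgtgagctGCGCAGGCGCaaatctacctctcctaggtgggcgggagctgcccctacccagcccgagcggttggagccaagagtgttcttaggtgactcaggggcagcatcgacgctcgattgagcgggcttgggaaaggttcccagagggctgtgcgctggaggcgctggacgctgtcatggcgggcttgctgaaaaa
Cox6a1 (chr5:115348959-115349208, minus strand): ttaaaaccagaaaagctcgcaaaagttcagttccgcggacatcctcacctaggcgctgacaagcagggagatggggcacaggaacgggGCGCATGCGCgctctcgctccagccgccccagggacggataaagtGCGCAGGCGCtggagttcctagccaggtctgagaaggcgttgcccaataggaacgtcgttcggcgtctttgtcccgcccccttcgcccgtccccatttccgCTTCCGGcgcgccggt
Atp5k (chr5:108434400-108434649, minus strand): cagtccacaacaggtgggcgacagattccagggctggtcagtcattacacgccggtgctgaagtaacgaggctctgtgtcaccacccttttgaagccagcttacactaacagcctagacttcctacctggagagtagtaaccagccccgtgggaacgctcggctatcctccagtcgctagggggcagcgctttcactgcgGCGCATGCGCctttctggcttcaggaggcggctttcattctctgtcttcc
In these stretches Sdha has 3 NRF1 matches, at 98 to 89, 55 to 46 and 10 to 1 bases before the start, and Sdhd has 1 at 79 to 70 and an ETS match on the other strand at 46 to 40. Cox6a1 has NRF1 matches at 162 to 153 and 117 to 108, and an ETS match on the other strand at 16 to 10. Atp5k has an NRF1 match at 50 to 41 and Ndufa5 at 190 to 181. None of the 4 sequences is in the stretch of Cox7a1. A match describes letters, and no factor's binding was measured.

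Genes around the chain moved to differing degrees in tumor crypts. Over all genes tested, 46.4% were below 0 against control, 9.74% were called lower and 12.8% were called higher. TCA cycle genes, which feed electrons into it, had 12 of 13 below 0, a median of -0.38 and 3 called lower: Dld, a shared subunit of the oxoglutarate and pyruvate dehydrogenases (-0.89, limma adjusted p = 0.0132), Suclg1, of succinyl-CoA ligase (-0.70, limma adjusted p = 0.0346) and Idh3b, of isocitrate dehydrogenase (-0.72, limma adjusted p = 0.0457). Complex IV assembly factors had a median of -0.40 over 17 genes with 3 called lower, Cox20, Higd1a and Surf1, at -0.75, -0.67 and -0.74. Of 5 complex V assembly and regulation genes, 1 was called lower (Fmc1, -0.95), with a median of -0.38. Complex I assembly factors outside the Nduf names had a median of -0.08 over 8 genes and no calls. Complex II and III assembly factors had a median of -0.17 over 8, and their 2 calls went opposite ways: Uqcc1, of complex III assembly, at -0.89, and Sdhaf1, of complex II assembly, at 0.76. Sdhaf1 read 697 and 727 in control against 1125 and 1309 in tumor crypts (limma adjusted p = 0.0138), while all 4 subunit genes of that complex were below 0. Cytochrome c and ubiquinone synthesis genes had no calls among 9 and a median of -0.35, with cytochrome c itself, Cycs, at -0.43 ± 0.16 (limma adjusted p = 0.0822).

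Entry of pyruvate and control of mitochondrial genes completed the lists. Of 7 pyruvate dehydrogenase genes and kinases, Pdk4, a kinase that switches pyruvate dehydrogenase off, had 17.1 and 32.4 in control, 13.0 and 27.2 in DSS, and 173 and 336 in tumor crypts. It passed the filter through the tumor arrays alone, so it had to be higher there, and its control and DSS values are near the pseudocount, so no size or test of its change is given. Mpc1, part of the pyruvate carrier, was lower (-0.71, limma adjusted p = 0.0477). Among 15 regulators of mitochondrial gene expression 3 were called lower and 0 higher, against 9.74% and 12.8% of all genes. Their median was -0.11. Ppargc1b, a coactivator of respiratory genes, had 948 and 792 in control, 991 and 1103 in DSS, and 359 and 377 in tumor crypts (-1.20 ± 0.17, limma adjusted p = 0.00242). Its relative Ppargc1a had 948 and 814, 1386 and 907, and 452 and 397 (-1.02 ± 0.23, limma adjusted p = 0.0152). Tumor values of both were far under all others, as were those of Polg2, an accessory subunit of the mitochondrial DNA polymerase (-1.04, limma adjusted p = 0.00723). Factors whose sequences were searched above were not called: Nrf1 was at -0.11, Gabpa at 0.00, Esrra at -0.40 and Yy1 at 0.17. Of 20 import, chaperone and cristae genes, 2 were called lower, a share near the 9.74% of all genes, and the median was -0.05. They were the cristae organiser Chchd3 (-0.96, limma adjusted p = 0.0108) and the outer membrane channel Vdac3 (-0.83, limma adjusted p = 0.0121). In DSS against control none of these lists had a call, nor did any of the 7456 genes.

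**Figure D5:**
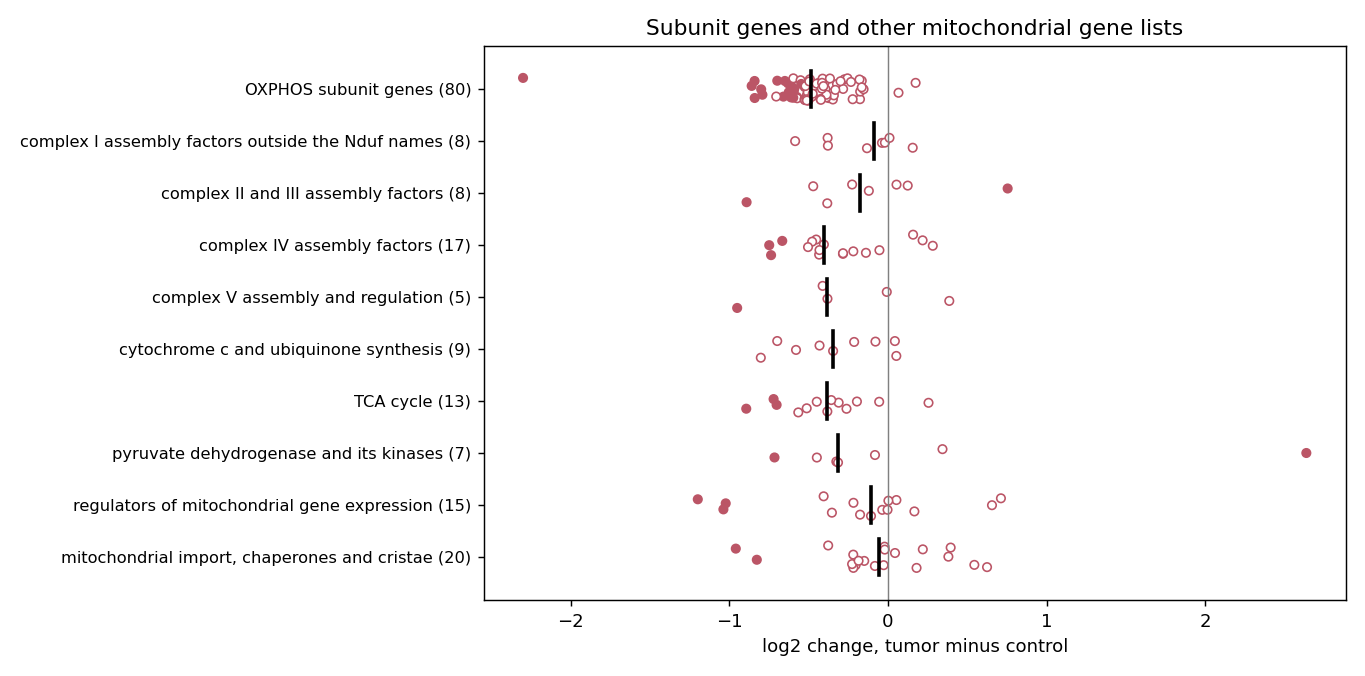
Log2 change from control to tumor of the 80 oxidative phosphorylation members and of tested genes in 9 other mitochondrial lists, with the number of genes in brackets; filled points are called (limma adjusted p under 0.05) and black bars are medians. Members have the lowest median, -0.48, and the point farthest above 0 is Pdk4, whose position depends on the pseudocount since its control intensities were 17.1 and 32.4.

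Cell type markers moved in the same comparison. Mature colonocyte markers were lower in tumor crypts, with 6 of 10 tested called (9.74% of all genes were called lower) and a median of -1.94. The summed intensity of all 11 on the array was 52829 and 57845 in control, 43342 and 47625 in DSS, and 22299 and 17386 in tumor crypts. Of 8 crypt base markers 5 were called higher, against 12.8% of all genes. Among them were Lgr5 and Tnfrsf19, which passed the filter without the control arrays, so the direction of these 2 was largely set by the filter. Pan-epithelial markers had 1 call among 8 (Krt18, higher) and a median of -0.04. Myeloid markers had 2 calls among 5, both higher (12.8% of all genes were called higher). Their sums were 2036 and 2362 in control, 1817 and 2369 in DSS, and 5205 and 10054 in tumor crypts. Fibroblast markers summed to 2018 and 4010.0 in control against 1121 and 7243 in tumor crypts, lymphoid markers to 289 and 2529 against 194 and 1841, and endothelial markers to 152 and 336 against 279 and 831. Tumor replicate 2 was thus below replicate 1 for colonocyte markers and for the members. It was also below for the striated muscle sum given with Cox7a1, and above for myeloid, fibroblast, lymphoid, endothelial and smooth muscle markers. In control and in DSS, replicate 2 was also above replicate 1 for these non-epithelial sums, and there it was above it for colonocyte markers too. Of the 80 members, 17 were lower on replicate 2 in control and 69 in DSS. The part of the crypt's cell makeup in the members' change was not tested.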

How the data were processed

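The authors deposited linear MAS5 intensities for each probe set on 6 arrays. MAS5 is named in the submitters' processing notes, and its version and settings are not given in the sources used here. The deposited intensities have a trimmed mean near 500.2 on each array, and no further normalization was applied. Of 22690 probe sets, 64 controls were set aside and 20380 had 1 gene symbol in the platform annotation. A probe set was kept if it exceeded the median of its array on 2 arrays or more, and the one of highest mean stood for its gene, which gave 7456 genes. Intensities were transformed as log2 of the value plus 17.7, the 25th percentile of all values. Differences were tested with limma (3.58.1; R 4.3.3) in a single model of the 3 groups, 2-sided and with the prior variance following intensity, and p-values were adjusted over all genes (Benjamini-Hochberg, threshold 0.05). The fit was tested on simulated data.

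Members and gene lists were chosen with earlier results of these data known. Named genes were all of complex II, up to 4 called members of largest change per complex, the 4 smallest p-values in DSS against control, isoform families, catalytic core subunits, and up to 3 called genes of smallest p per list; others named were chosen after their values were seen. Per the labels, arrays of a group are biological replicates; with 2 each, outliers could not be tested. Promoter windows are RefSeq's for GRCm38.p6; files were read with pandas and plotted with matplotlib 3.10.9. Alternatives covered scaling, pseudocount, filter, probe sets, intensity trend, fits of 2 groups, a block for replicate number, and leaving out arrays in turn.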

Additional observations from a re-analysis of the deposited data

How the results depend on the processing

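The median change of each complex kept its direction in tumor minus control, while the number of calls, the sign of members near 0 such as Ndufa4, Ndufa2 and Cox6a1 and the balance of calls over all genes depended on the processing. The median of every complex was below 0 under all 17 alternatives (from -0.75 to -0.29), and the count of members called lower, 19 as reported, was 35 with median centring, 8 with no filter, 36 of 142 probe sets when every probe set was tested, 10 with no intensity trend, 10 with only the 2 groups fitted, and 1 to 36 when an array was left out. In tumor minus DSS, the count of 29 became 10 with no filter, 50 probe sets when every probe set was tested, 12 with no intensity trend, and 2 to 42 with an array left out. The members' share called lower was above that of all genes under 15 of 17 alternatives in each tumor comparison; the exceptions were the fits without control replicate 2 (2.50% against 4.62%) and tumor replicate 2 (1.25% against 5.57%) in the first, and without DSS replicate 1 (2.50% against 4.91%) and tumor replicate 2 (2.50% against 7.28%) in the second. Over all genes, 726 lower and 954 higher calls in tumor minus control became 1227 and 649 with median centring, and ran from 341 to 690 and from 303 to 808 with an array left out. No member was called in DSS minus control under any alternative. Replicate numbers are shared between groups, and deviations of same-numbered arrays correlated at 0.448 (control and DSS), 0.076 (control and tumor) and 0.441 (DSS and tumor). Same-numbered control and DSS arrays also correlated more closely (0.983 and 0.986) than the 2 control arrays did (0.971). The labels do not say that the numbers mark a shared day or batch, so they were not taken as pairs in the reported fit. What same-numbered arrays share was not tested. With the replicate number as a block, members called lower were 21 against control, 33 against DSS and 0 in DSS minus control. Filters change the number of genes tested and leaving out an array changes the number of arrays. The causes of the changes in counts were not tested.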
